A study of Arabidopsis thaliana with 36 samples.

Results

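Class III peroxidases were taken as the genes that the deposited expression table describes as "Peroxidase superfamily protein" and that carry an Arabidopsis gene identifier. The description chose 67 of the 28496 genes of the table, without regard to any expression value. All 67 were found in the RefSeq annotation of the TAIR10.1 assembly, and 66 of them are class III peroxidases. The remaining gene is DOX1 (AT3G01420), an alpha-dioxygenase that RefSeq describes as induced by salicylic acid and oxidative stress, and it was kept because the description holds for it. Conversely, 6 listed class III peroxidases are described in other words and stood outside the 67 (AT3G49110, AT3G49120, AT5G06720, AT5G22410, AT5G67400 and AT4G30170). They are shown as relatives. AT3G17070 and AT3G42570, each described as a peroxidase family protein, were not listed and are not shown.

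RNA of shoots and roots was sequenced in 36 libraries of Arabidopsis seedlings, 18 for each tissue. Wild-type Col-0 plants (WT) were compared with transgenic lines 12 and 4, which carry 35S:PHT5;1-GFP, a fusion of the vacuolar phosphate (Pi) importer PHT5;1 driven by a viral promoter that is active in most tissues. Seedlings grew for 10 days at 250 µM Pi (+P0), and some were then starved at 10 µM Pi for 1 day (-P1) or 3 days (-P3). The starved seedlings were thus 1 or 3 days older than those at +P0, and no group of that age at sufficient Pi is among the samples, so that Pi supply cannot be told apart from age or from the change of medium in any comparison of -P1 or -P3 with +P0. Each of the 9 groups of a tissue had 2 libraries of about 20 pooled seedlings, which the authors call biological replicates. WT carries no transgene, so that in a single line the overexpression and anything else particular to that line cannot be told apart.

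Class III peroxidases are heme enzymes that plants secrete into the cell wall and the vacuole. They use hydrogen peroxide to couple lignin monomers, extensins and suberin, which stiffens the wall, and they can also release reactive oxygen that loosens it. In roots they are known from the growth of root hairs and from the Casparian strip, and in leaves from lignified vessels and from the response to microbes and wounding. Root hairs elongate in Pi-starved Arabidopsis, which brings this family within the root's response to Pi.

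Expression is given as RPKM, in which the reads of a gene are divided by its exon length in kilobases and by the mapped reads of the library in M. Library totals recovered from the RPKM ran from 19.0 to 40.7 M reads (median 28.4 M). At a gene length of 1500 bases, 0.25 RPKM therefore stood for 7.13 to 15.3 reads. PHT5;1 (AT1G63010), whose reads come from the native gene and the transgene together, stood at 14.7 to 19.9 RPKM in WT shoots, 18.9 to 35.5 in line 4 and 52.6 to 93.8 in line 12. In roots it stood at 28.2 to 41.7 in WT, 52.1 to 92.4 in line 4 and 306 to 399 in line 12. In shoots after 1 day of starvation the line 4 values (21.1 and 21.3) lay close to those of WT (19.3 and 19.9). Markers of green tissue summed to 30990 to 47579 RPKM in shoots and 191 to 585 in roots, and all 36 libraries matched their tissue label. In the shoot 5 second-replicate libraries stood apart: WT +P0, line 12 +P0, line 4 -P1, line 12 -P1 and WT -P3 held 380 to 397 genes each that were seen in no library outside the second-replicate shoots, against 3 to 7 in the other 4 of these. Of them, 313 were seen in all 5 and nowhere else, and none was a peroxidase. Shoot counts are therefore given with and without these libraries, an alternative chosen after seeing the data.

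Several members sit side by side on a chromosome with a close copy, and the first lines of sequence show how far reads can tell such copies apart. The coding sequences of AT1G05240 and AT1G05250 were identical over all 978 bases, so a read within them cannot be assigned to either. Those of Prx37 (AT4G08770, an apoplastic peroxidase of the vascular bundles) and AT4G08780 were 93.8% identical, with a longest shared run of 101 bases. The first 120 coding bases of each, read from TAIR10.1 (RefSeq annotation) at chr1:1521202-1521321 (+), chr1:1527050-1527169 (-), chr4:5600143-5600262 (-) and chr4:5604153-5604272 (+), are shown 5′ to 3′, with capitals where the members of a pair differ.
AT1G05240: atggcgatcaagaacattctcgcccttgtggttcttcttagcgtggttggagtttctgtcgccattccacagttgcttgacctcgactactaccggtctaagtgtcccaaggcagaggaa
AT1G05250: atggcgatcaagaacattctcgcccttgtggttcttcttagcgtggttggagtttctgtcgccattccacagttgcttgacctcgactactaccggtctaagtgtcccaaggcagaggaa
AT4G08770: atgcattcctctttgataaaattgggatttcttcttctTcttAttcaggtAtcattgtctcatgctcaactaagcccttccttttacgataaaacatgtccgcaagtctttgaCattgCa
AT4G08780: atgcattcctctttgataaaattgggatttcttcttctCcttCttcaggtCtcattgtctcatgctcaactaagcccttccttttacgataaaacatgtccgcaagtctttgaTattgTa
The first pair showed 0 differences over this stretch and the second pair 5. Other neighbours were less alike: AT4G37520 and AT4G37530 were 92.4% identical (longest shared run 67 bases), AT2G38380 and AT2G38390 90.6% (62), AT1G14540 and AT1G14550 72.3% (19), and AT5G64100 and AT5G64110 68.0% (15). Values of AT1G05240 and AT1G05250 are therefore uncertain one by one and are also given as a sum.

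The 500 bases before each annotated gene start were searched on both strands for P1BS (GNATATNC), the element bound by the Pi starvation regulator PHR1, and for the root hair element, a longer degenerate motif of root hair genes. P1BS occurred before 5 of 67 members (7.46%), against 10.7% of 27443 protein-coding genes. The root hair element occurred before 2 of 67 (2.99%), against 1.46% of those genes. A match describes these letters and is not a binding site. The 2 root hair element matches and the P1BS match of AT1G30870, a member of the root hair group described below, are shown 5′ to 3′ along the gene with the match in capitals. They lie at chr2:14892372-14892417 (+), chr3:68880-68926 (-) and chr1:10991366-10991403 (+) of TAIR10.1.
AT2G35380: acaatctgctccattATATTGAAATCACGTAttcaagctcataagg
AT3G01190: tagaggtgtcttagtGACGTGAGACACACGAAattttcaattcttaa
AT1G30870: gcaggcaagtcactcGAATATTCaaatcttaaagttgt
The base of each match nearest the gene stood 93, 230 and 90 bases before the gene start, in this order. The other P1BS matches stood before AT3G32980, Prx37, AT5G58390 (2 matches) and PRX71 (AT5G64120). Their calls went both ways (below). Prx37 was higher in the lines' shoots and lower in WT shoots at -P3, AT1G30870 was higher in WT roots at -P3 and lower in the lines' roots at +P0, and PRX71 was lower in the lines' roots at +P0. AT5G58390 was called only in the shoot's response, as smaller in both lines, while AT3G32980 was called in no comparison within either tissue.

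Peroxidase transcripts were far more abundant in roots than in shoots. The 67 genes together held 5228 to 9035 RPKM in root libraries (median 7284, or 0.878 to 1.33% of the summed RPKM of a library) and 932 to 1618 RPKM in shoot libraries (median 1152, or 0.123 to 0.211%), and the ranges did not overlap. In the root 15 members had a mean above 100 RPKM and 43 a mean above 10 RPKM, against 2 and 13 in the shoot. A mean of at least 0.25 RPKM, the limit for testing, was reached by 56 members in the root and 41 in the shoot, with 40 in both, 16 in the root only and 1 in the shoot only. The remaining 10 reached it in neither tissue, with a highest mean of 0.188 RPKM, and AT1G24110 was at 0 in every library.

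PRXR1 (AT4G21960) was the most abundant member in both tissues. It had 1484 and 1375 RPKM in WT +P0 roots and 728 and 631 in WT +P0 shoots. In the root it was followed by AT3G32980 (737 to 1043 RPKM over the 18 libraries), AT5G64100 (353 to 976), AT2G37130 (233 to 768), AT3G01190 (289 to 625), AT2G38390 (335 to 582), DOX1 (200.3 to 512), AT2G38380 (254 to 376), AT3G21770 (245 to 330) and AT5G17820 (95.6 to 412). Neighbours in this order overlapped over the libraries, while the span between the lowest and highest value of a gene differed widely: AT3G21770 stayed within its narrow range in every group, and AT5G17820 moved with Pi supply and genotype. In the shoot, AT1G71695 came second with 102 to 136 RPKM, then AT2G37130 (44.8 to 93.8), AT4G37520 (13.3 to 101), AT3G28200 (23.7 to 56.7), PRX71 (11.5 to 54.2), AT5G51890 (13.1 to 23.8), AT5G58390 (12.9 to 19.4), AT4G37530 (3.12 to 33.8) and AT3G21770 (8.09 to 19.0). PRX71 is a wall-bound peroxidase of lignification, and AT5G51890 is known from the lignification of vessel elements. The latter was one of the few members at similar levels in both tissues, with 24.0 and 26.3 RPKM in WT +P0 roots and 16.2 and 19.8 in WT +P0 shoots.

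At sufficient Pi, 46 of 57 members tested were called higher in WT roots than in WT shoots (adjusted p under 0.05 and at least 2-fold), against 35.9% of all 21141 genes, and 3 were called lower, against 15.3%. The median log2 difference was 4.40 over the members and 0.65 over all genes. Genes entered this test by their mean over all 36 libraries. The 16 members that reached 0.25 RPKM in the root only therefore entered through their root values. All of these were called higher in the root, a call that the filter favoured in advance. The difference was widest for AT3G01190, which had 447 and 460 RPKM in roots and 0.139 and 0.622 in shoots (log2 difference 9.61 ± 0.34 SE, adjusted p = 8.57e-18). PER64 (AT5G42180), known from the Casparian strip, had 51.4 and 51.7 RPKM in roots and 0 and 0.183 in shoots (7.30 ± 0.24, 1.7e-18). The 3 exceptions were AT5G64110 (2.88 and 3.20 RPKM in roots against 7.15 and 8.12 in shoots, -1.26 ± 0.29, 0.000338), AT1G71695 (14.7 and 14.7 against 119 and 107, -2.92 ± 0.13, 7.84e-16) and AT5G58390 (14.7 and 14.6 in shoots). AT5G58390 is listed at 0 in all 18 root libraries, as are 56 genes of the table with a shoot mean above 3 RPKM, so no fold is given for it. Its neighbour AT5G58400 is listed at 0 in those libraries too.

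**Figure D1:**
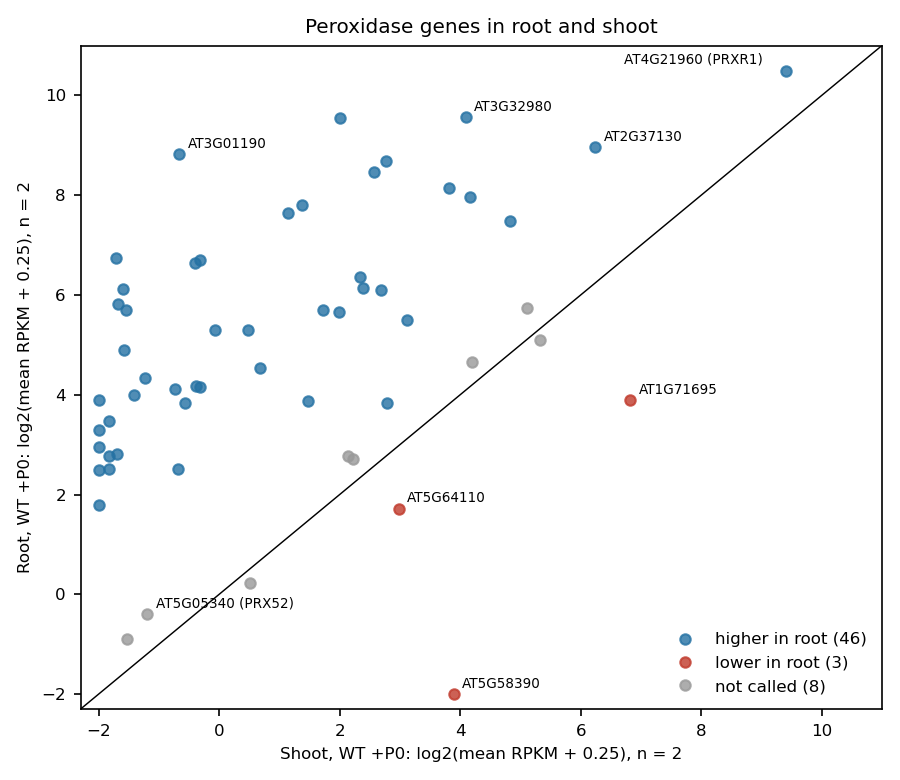
Mean RPKM of WT +P0 libraries (n = 2 per tissue) on the log2(RPKM + 0.25) scale, shoot on the x axis and root on the y axis, 1 point for each of the 57 members tested, coloured by call, with the line of equal values. Of these, 46 lie above the line as called higher in the root and 3 below it as called lower.

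Groups were compared on the log2(RPKM + 0.25) scale with limma, with p-values adjusted over every gene that entered the test. Calls required an adjusted p under 0.05 together with a 1.5-fold difference between mean RPKM in roots or a 2-fold difference in shoots, and "rose" and "fell" are used only of called genes. In each comparison the share of members called is set beside the share of all genes called in that direction, 20530 genes in the root and 19773 in the shoot. The same WT libraries serve in the starvation comparison and in the comparisons of both lines, so these are not independent of each other.

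**Figure D2:**
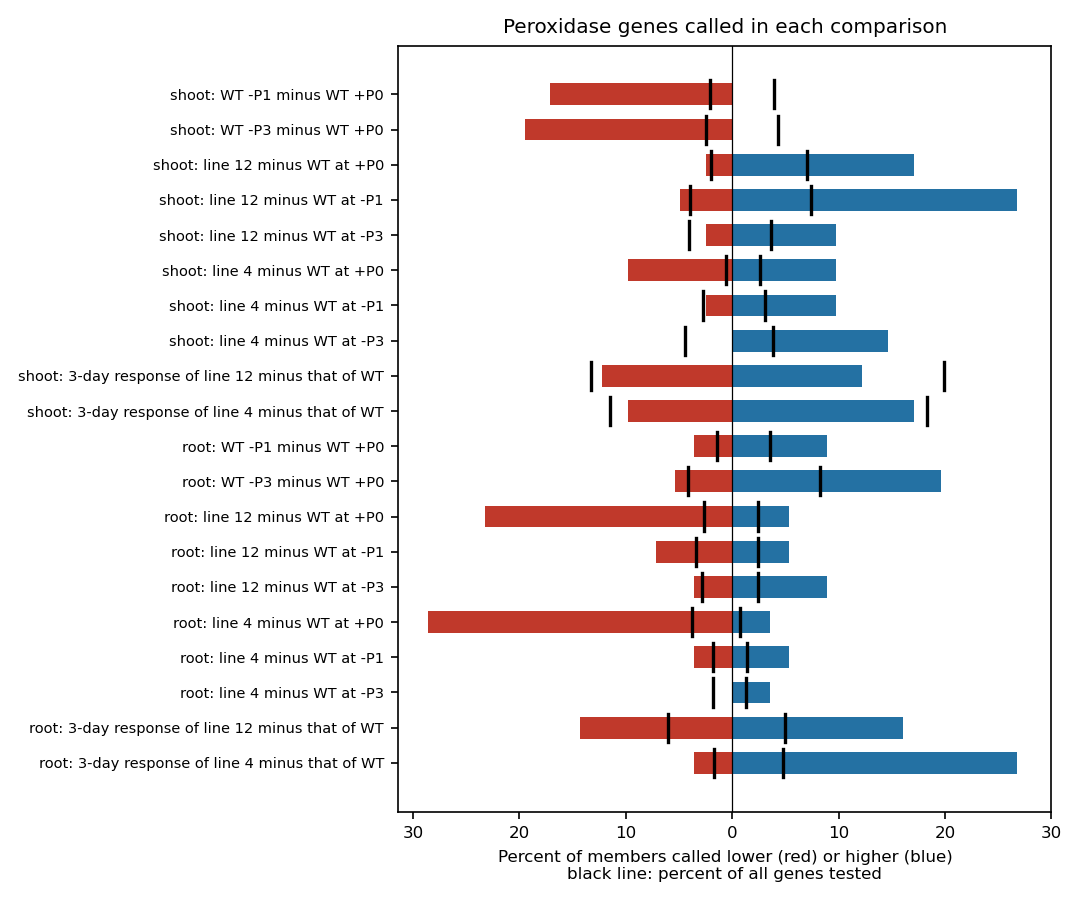
Percent of tested members called higher (blue, to the right) or lower (red, to the left) in each comparison, with a black line at the percent of all genes tested that were called in that direction. The longest bars are those of members lower in line 4 roots at +P0 (28.6%), higher in line 12 shoots at -P1 (26.8%), and higher in the root's 3-day response of line 4 minus that of WT (26.8%).

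In WT roots a group of root hair peroxidases was higher at -P3 than at +P0. Of 56 members tested, 11 rose, against 8.27% of all genes, and 3 fell, against 4.12%. The median log2 change was 0.17 over the members and -0.06 over all genes. Among the 10 members listed for root hairs, 6 rose and 1 fell, with a median log2 change of 0.94. AT1G34510 went from 6.06 and 4.91 RPKM to 17.0 and 16.1 (log2 change 1.56 ± 0.14 SE, adjusted p = 9.37e-07). AT3G49960, which RefSeq describes as enriched in root hair cells, went from 20.9 and 19.1 to 53.4 and 47.2 (1.32 ± 0.16, 1.75e-05). AT4G26010 went from 70.9 and 68.0 to 172 and 154 (1.23 ± 0.18, 8.92e-05). All starved libraries lay above all sufficient ones for these genes and for AT1G30870 (55.8 and 56.9 to 129 and 107, 1.06 ± 0.16, 0.000165) and AT5G17820 (214 and 230 to 412 and 373, 0.82 ± 0.12, 0.000152).

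AT1G05250, a cationic wall-bound peroxidase with a part in lignification, rose in the same comparison from 118 and 97.3 RPKM to 338 and 273 (1.504 ± 0.32, adjusted p = 0.00285). Its identical neighbour AT1G05240 had 15.6 and 15.6 against 20.1 and 33.7 (0.73 ± 0.63, adjusted p = 0.415). Reads of the pair cannot be told apart within the coding sequence, and their sum went from 133 and 113 to 358 and 307 RPKM. Of the root hair list, AT3G01190 (447 and 460 to 624 and 567, 0.39 ± 0.12, adjusted p = 0.0274) passed the p but not the fold, and AT5G64100 (765 and 730 to 880 and 760) passed neither. AT5G39580 fell from 16.8 and 11.9 to 7.36 and 7.25 RPKM (-0.93 ± 0.20, 0.00252), a call lost without WT +P0 replicate 1 (adjusted p = 0.0504).

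Outside that list, AT5G15180 rose in starved WT roots from 37.0 and 40.8 to 95.3 and 82.7 RPKM (1.19 ± 0.14, adjusted p = 9.5e-06). AT5G19880 rose from 0.270 and 0.301 to 1.12 and 0.714 RPKM (1.10 ± 0.36, 0.0321), and its call was lost without WT +P0 replicate 1 (0.130), WT +P0 replicate 2 (0.0963) or WT -P3 replicate 1 (0.222). AT1G68850 (23.3 and 22.4 to 43.8 and 39.7) and AT2G35380 (41.3 and 36.5 to 69.1 and 66.8) rose as well. The 2 members that fell beside AT5G39580 were AT4G08780 (19.0 and 16.5 to 13.0 and 8.31) and AT4G33420 (81.0 and 81.7 to 48.3 and 47.1). Markers of trichoblasts, the epidermal cells that form root hairs, moved with the root hair peroxidases: the sum of 5 markers was 122 and 126 RPKM in WT +P0 roots and 316 and 277 in WT -P3 roots. More hair cells and more RNA per hair cell cannot be told apart in whole roots, and the part of either was not tested.

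The root hair group had not risen after 1 day. In WT -P1 roots 5 members rose, against 3.58% of all genes, and 2 fell, against 1.41%. One of those that fell was AT1G34510, from 6.06 and 4.91 to 3.05 and 2.88 RPKM (-0.83 ± 0.14, adjusted p = 0.00144), so that this gene was lower at 1 day and higher at 3 days than at +P0, with no overlap between the 3 groups. The other was AT5G39580 (7.83 and 7.13 RPKM at -P1, -0.90 ± 0.20, 0.00837), lost without WT +P0 replicate 1 (0.132) or WT -P1 replicate 2 (0.0554). AT1G68850 had already risen to 42.6 and 39.4 RPKM (0.84 ± 0.10, 5.11e-05) and AT2G35380 to 68.9 and 60.02 (0.72 ± 0.10, 0.000282), both close to their 3-day values. AT2G34060 rose from 6.54 and 6.02 to 10.3 and 11.2 (0.75 ± 0.14, 0.00323). PRX52 (AT5G05340) rose from 0.193 and 0.830 to 1.44 and 2.64 RPKM (1.68 ± 0.43, 0.0221), lost without WT +P0 replicate 1 (0.284) or WT -P1 replicate 2 (0.176). AT1G49570 rose from 10.4 and 11.2 to 18.8 and 22.0 (0.90 ± 0.24, 0.0261), a call lost without any 1 of its 4 libraries (largest adjusted p = 0.144, without WT +P0 replicate 1). Trichoblast markers summed to 108 and 108 RPKM in these libraries.

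In roots at sufficient Pi, both overexpressing lines had less of the root hair peroxidases than WT. In line 12, 13 of 56 members fell, against 2.69% of all genes, and 3 rose, against 2.41%. In line 4, 16 fell, against 3.74%, and 2 rose, against 0.701%. Of the 10 root hair members, 7 fell in line 12 (median log2 difference -0.86) and 7 in line 4 (-1.15), and both lines were set against the same WT libraries. From the same data the authors had reported a subset of starvation-induced genes as lower in the lines' roots at sufficient Pi. That subset was enriched for root development, trichoblast differentiation included. The list was chosen with earlier results known, so its counts are not independent of that report. AT1G34510 had 2.33 and 1.63 RPKM in line 12 and 1.81 and 1.87 in line 4, against 6.06 and 4.91 in WT (-1.38 ± 0.14, adjusted p = 1.31e-05, and -1.45 ± 0.14, 1.29e-05). AT3G49960 had 10.2 and 11.2 in line 12 and 8.25 and 4.99 in line 4, against 20.9 and 19.1 in WT (-0.89 ± 0.16, 0.00178, and -1.60 ± 0.16, 1.33e-05). All libraries of the lines lay below both WT libraries for these genes.

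AT4G26010 showed the same order, with 32.6 and 28.9 RPKM in line 12 and 35.7 and 20.7 in line 4 against 70.9 and 68.0 in WT (-1.17 ± 0.18, adjusted p = 0.000402, and -1.35 ± 0.18, 0.000139). AT1G30870 had 26.7 and 26.5 in line 12 and 29.2 and 17.3 in line 4 against 55.8 and 56.9 (-1.08 ± 0.16, 0.000397, and -1.32 ± 0.16, 8.39e-05). AT5G17820 had 128 and 122 in line 12 and 133 and 95.6 in line 4 against 214 and 230 (-0.83 ± 0.12, 0.000386, and -0.98 ± 0.12, 0.000108). AT5G64100, which was not called in WT at -P1 or -P3, fell to 516 and 429 RPKM in line 12 and 528 and 353 in line 4 from 765 and 730 (-0.67 ± 0.16, 0.0151, and -0.79 ± 0.16, 0.0054). AT1G05250 was at 48.7 and 27.8 in line 12 (-1.53 ± 0.32, 0.00608) and 36.8 and 16.6 in line 4 (-2.10 ± 0.32, 0.000638). Its line 12 call was lost without WT +P0 replicate 1 (0.0665) or line 12 +P0 replicate 2 (0.109). Summed with AT1G05240, the pair had 74.7 and 60.04 RPKM in line 12 and 77.1 and 35.7 in line 4 against 133 and 113 in WT, so the sum differed less than AT1G05250 alone. AT1G05240 itself stood above both WT libraries in every library of the lines and was called in neither line. Trichoblast markers summed to 62.1 and 58.6 RPKM in line 12 and 64.5 and 39.2 in line 4, below the 122 and 126 of WT, and their part in these differences was not tested.

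Peroxidases outside the root hair list fell in the lines as well. Of 9 members of the defence and wounding list, all tested in the root, 3 fell in each line and 0 rose. Over all genes 2.69% fell in line 12 and 3.74% in line 4. The 3 were AT1G14540, AT1G14550 and PRX71 (AT5G64120). The median log2 difference over the list was 0.08 in line 12 and -0.12 in line 4. PER4 (AT1G14540) had 6.98 and 6.19 RPKM in line 12 and 9.11 and 4.36 in line 4 against 18.3 and 15.8 in WT (-1.34 ± 0.23, adjusted p = 0.00141, and -1.39 ± 0.23, 0.00129), and its neighbour AT1G14550 had 1.90 and 2.56 and 3.01 and 1.47 against 5.63 and 5.09. The line 12 call of AT1G14550 was lost without WT +P0 replicate 1 (0.0917), WT +P0 replicate 2 (0.0578) or line 12 +P0 replicate 1 (0.124), and its line 4 call without WT +P0 replicate 1 (0.0941) or line 4 +P0 replicate 2 (0.149). AT2G37130, among the most abundant root members, had 332 and 281 RPKM in line 12 and 339 and 233 in line 4 against 490 and 512 (-0.71 ± 0.14, 0.00324, and -0.83 ± 0.14, 0.00121). AT2G39040 had 9.54 and 5.35 RPKM in line 4 against 14.1 and 15.3 in WT (-1.01 ± 0.20, 0.0047), lost without line 4 +P0 replicate 2 (0.0658). That library is the shallowest of the root and had the lowest value of its group for each of these genes. In line 4 the count of members called was 11 without it and 11 without WT +P0 replicate 1, and in line 12 it was 10 without line 12 +P0 replicate 2.

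AT1G49570 went the other way. It had 30.1 and 20.8 RPKM in line 12 and 29.9 and 14.7 in line 4 against 10.4 and 11.2 in WT (1.196 ± 0.24, adjusted p = 0.00377, and 0.94 ± 0.24, 0.0205), with no overlap. The line 12 call was lost without line 12 +P0 replicate 1 (0.0716). AT4G11290, a target of the root growth regulator UPBEAT1, rose in line 12 only by its call, from 49.0 and 51.2 to 90.3 and 79.2 RPKM (0.75 ± 0.11, 0.000231). In line 4 it had 77.2 and 59.2, and the lines were not tested against each other.

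**Figure D3:**
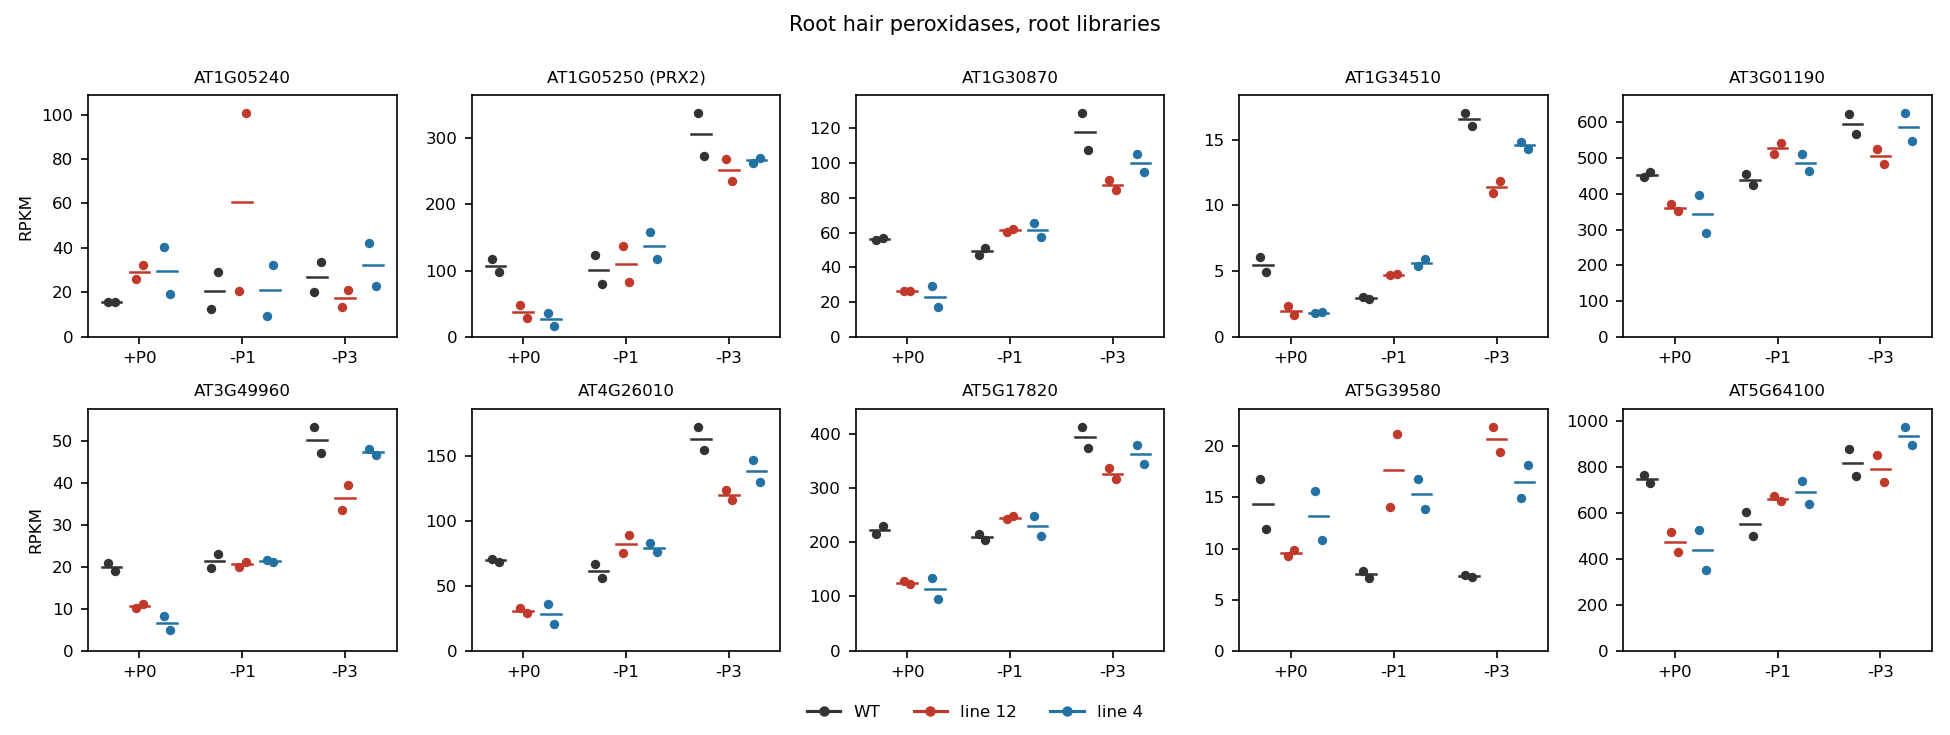
RPKM of the 10 root hair members in root libraries (y axis, from 0) by Pi supply (x axis), with points for the 2 libraries of a group and a line at their mean, WT in grey, line 12 in red and line 4 in blue. At +P0, 7 of the 10 were called lower than WT in both lines. At -P3 the values of all 3 genotypes are near each other for AT4G26010 (116 to 172 RPKM) and AT5G64100 (735 to 976).

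Fewer members differed from WT in the starved roots of the lines. In line 12 at -P1, 3 members rose, against 2.45% of all genes, and 4 fell, against 3.42%. At -P3, 5 rose, against 2.38%, and 2 fell, against 2.8%. In line 4 at -P1, 3 rose, against 1.37%, and 2 fell, against 1.79%. At -P3, 2 rose, against 1.26%, and 0 fell, against 1.76% (limma, with 6 members lower at an unadjusted p under 0.05). These shares stood at or above the background in most of the comparisons, on few genes. Over the 10 root hair members the median log2 difference at -P1 was 0.29 in line 12 and 0.32 in line 4. At -P3 it was -0.35 in line 12 and -0.10 in line 4. Of the root hair list, only AT5G39580 and AT1G34510 were called in these comparisons, both as higher, whereas AT1G34510 had been called lower in both lines at +P0. Outside it, AT2G34060 was called higher in line 4 at +P0 and lower at -P1. AT1G34510 at -P1 had 4.69 and 4.78 RPKM in line 12 and 5.38 and 5.90 in line 4 against 3.05 and 2.88 in WT (0.63 ± 0.14, 0.00819, and 0.87 ± 0.14, 0.00126). The line 12 call was lost without WT -P1 replicate 2 (0.0552) or line 12 -P1 replicate 2 (0.0737). Trichoblast markers summed to 133 and 144 RPKM in line 12 and 142 and 132 in line 4 at -P1, against 108 and 108 in WT, and to 220 and 232 and 261 and 247 at -P3, against 316 and 277.

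AT5G39580, listed for root hairs and for defence, was the member with the steadiest excess in starved roots of the lines. At -P1 it had 14.1 and 21.2 RPKM in line 12 and 16.8 and 13.9 in line 4 against 7.83 and 7.13 in WT (1.18 ± 0.20, adjusted p = 0.000902, and 1.01 ± 0.20, 0.00518). At -P3 it had 21.9 and 19.5 in line 12 and 14.9 and 18.2 in line 4 against 7.36 and 7.25 (1.47 ± 0.20, 0.000132, and 1.15 ± 0.20, 0.0019). The groups did not overlap at either time, and only the line 4 call at -P1 was lost by leaving out a library (line 4 -P1 replicate 1, 0.0636). At sufficient Pi the same gene had 9.30 and 9.85 in line 12 and 15.6 and 10.8 in line 4 against 16.8 and 11.9 in WT, where neither line was called.

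Smaller differences in starved roots concerned single genes. AT4G08780 at -P3 had 20.6 and 20.8 RPKM in line 12 and 17.0 and 17.1 in line 4 against 13.0 and 8.31 in WT (0.97 ± 0.16, adjusted p = 0.000591, and 0.70 ± 0.16, 0.0129). The line 4 call was lost without WT -P3 replicate 2 (0.229), line 4 -P3 replicate 1 (0.0746) or line 4 -P3 replicate 2 (0.101). AT2G22420 rose in line 12 at -P3 (16.7 and 16.5 against 9.51 and 10.05, 0.75 ± 0.12, 0.000516) and in line 4 at -P1 (15.2 and 15.4 against 11.3 and 8.26, 0.65 ± 0.12, 0.00307). The latter fell below 1.5-fold without WT -P1 replicate 2 (log2 difference 0.43). AT4G33420 at -P3 was higher in line 12 (72.8 and 85.7 against 48.3 and 47.1, 0.72 ± 0.14, 0.00263), lost without line 12 -P3 replicate 2 (0.0575). AT2G18150 at -P1 was lower in line 12, with 53.9 and 57.8 RPKM against 112 and 92.6 in WT (-0.87 ± 0.15, 0.00115). AT5G19890 at -P1 was lower in both lines, with 4.23 and 5.68 in line 12 and 5.12 and 3.82 in line 4 against 7.90 and 8.04 (-0.67 ± 0.15, 0.0083, lost without line 12 -P1 replicate 1, 0.109, and -0.81 ± 0.15, 0.00385, lost without line 4 -P1 replicate 2, 0.0949). AT2G34060, AT4G37520 and AT5G40150 at -P1 and AT2G18980, AT3G03670 and AT5G15180 at -P3 made up the other line 12 calls. Each was lost without at least 2 of its libraries, among them line 12 -P1 replicate 2 or line 12 -P3 replicate 2 in all 6, and without these libraries the counts were 4 at -P1 and 3 at -P3.

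The difference between responses was tested directly, as the 3-day response of a line minus that of WT, called by adjusted p alone. In line 4 roots 15 members had the larger response, against 4.74% of all genes, and 2 the smaller, against 1.68%. In line 12 the counts were 9, against 4.99%, and 8, against 6.07%. These 17 calls in line 12 became 30 when the libraries were scaled by their median ratio and 28 with a replicate block. Of the 10 root hair members 8 had the larger response in line 4 (median log2 1.10) and 3 in line 12 (0.63). AT3G49960 led those with a call that held without any single library, at 1.52 ± 0.23 (adjusted p = 0.000548) in line 4, where it went from 8.25 and 4.99 to 48.2 and 46.7 RPKM. In WT the same gene went from 20.9 and 19.1 to 53.4 and 47.2, so that the groups overlapped at 3 days and not before. AT1G05250 had 1.91 ± 0.46 (0.0184) in line 4, lost without 5 of 8 libraries (largest adjusted p = 0.0832, without WT -P3 replicate 2). Its sum with AT1G05240 went from 77.1 and 35.7 to 305 and 292 RPKM in line 4. In WT the sum went from 133 and 113 to 358 and 307, and the response of the sum was not tested. AT5G39580 responded by 2.02 ± 0.28 more in line 12 (0.000133) and 1.27 ± 0.28 more in line 4 (0.0109). AT1G49570 and AT2G34060 responded less in both lines. In line 4 the count was 8 without WT +P0 replicate 1, 9 without WT -P3 replicate 2 or line 4 -P3 replicate 2, and 10 without line 4 -P3 replicate 1, and in line 12 it was 8 without WT +P0 replicate 1.

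Of the 11 members listed for lignin and the Casparian strip, all tested in the root, 0 to 2 were called in any root comparison. In WT 1 was called at 1 day (PRX52, higher, against 3.58% of all genes) and 1 at 3 days (AT4G33420, lower, against 4.12%). AT4G11290 was called higher in line 12 at +P0 (against 2.41%), AT2G22420 and AT4G33420 in line 12 at -P3 (against 2.38%) and AT2G22420 in line 4 at -P1 (against 1.37%). The 3-day response was larger for AT2G22420 and smaller for AT4G11290 in line 12, and larger for AT1G44970 and AT2G22420 in line 4. RCI3 (AT1G05260), a cold-inducible cationic peroxidase, stayed between 194 and 242 RPKM in all 18 root libraries. PER64 stayed between 42.8 and 69.3, PRX72 (AT5G66390), known from lignin synthesis, between 96.3 and 143, and PRX25 (AT2G41480) between 25.01 and 39.2. Markers of the endodermis summed to 202 to 360 RPKM and those of xylem to 144 to 213 in the same libraries. Of the 3 UPBEAT1 targets, AT4G16270 stayed between 5.42 and 10.3 RPKM and was not called in the root.

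In starved WT shoots some peroxidases of low to moderate level fell, none was called higher, and the summed level of the family did not drop. The 67 members together had 1217 and 1060 RPKM at +P0, 1348 and 1248 at -P1 and 1618 and 1439 at -P3, and without PRXR1 the sums were 489 and 429, 389 and 386, and 404 and 362. After 1 day 7 of 41 members fell, against 2.13% of all genes, and 0 rose, against 3.94% (limma, with 3 higher at an unadjusted p under 0.05). After 3 days 8 fell, against 2.48%, and 0 rose, against 4.32% (2 higher at an unadjusted p under 0.05). The median log2 change was -0.39 over the members at both times, against -0.11 and -0.14 over all genes. Without the shoot libraries that hold genes seen nowhere else the counts were 6 and 4. A list of 4 root markers (PYK10, EXPA7, COBL9 and CASP1), all above 0, was lower in sum in starved WT shoots. Its sum was 288 and 236 RPKM at +P0, 170 and 180 at -P1 and 146 and 127 at -P3. This sum was nearly all PYK10, with a mean of 261 RPKM in WT +P0 shoots. EXPA7, COBL9 and CASP1 had means of 0.054, 0.089 and 0.45 there. Trichoblast markers summed to 0.395 and 0.312 RPKM in WT shoots at +P0 and 0.6996 and 0.627 at -P3. Endodermis markers summed to 0.432 and 1.82 at +P0 and 1.76 and 1.45 at -P3. The part of root material in the members that fell was not tested. Without WT -P1 replicate 1 the 1-day count was 1, without WT +P0 replicate 1 it was 4, and without WT -P1 replicate 2 it was 11.

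DOX1 fell most, from 5.69 and 5.70 RPKM to 0.514 and 0.548 after 3 days (-2.93 ± 0.43, adjusted p = 0.000338). After 1 day it had 1.21 and 4.44, and was not called. Prx37 fell from 4.43 and 1.64 to 0.745 and 0.512 (-1.77 ± 0.51, 0.0181), lost without WT +P0 replicate 1 (0.175) or WT -P3 replicate 2 (0.0940). AT4G36430 went from 7.22 and 5.21 to 1.55 and 3.02 after 1 day (-1.39 ± 0.39, 0.0194) and to 1.63 and 1.85 after 3 days (-1.69 ± 0.39, 0.00552), and its 1-day call was lost without WT +P0 replicate 1 (0.120) or WT -P1 replicate 1 (0.174). AT4G11290 had not fallen after 1 day (4.57 and 4.29 against 3.47 and 3.94) and was at 1.55 and 1.73 after 3 days (-1.06 ± 0.19, 0.00121).

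The neighbours AT2G38380 and AT2G38390 fell together, from 12.6 and 15.02 to 6.70 and 5.53 RPKM after 3 days (-1.14 ± 0.22, adjusted p = 0.00176) and from 5.13 and 7.96 to 2.65 and 2.46 (-1.25 ± 0.30, 0.0072, lost without WT +P0 replicate 2, 0.0779). AT5G64100 fell from 4.18 and 3.35 to 1.59 and 0.995 (-1.40 ± 0.30, 0.0035) and AT5G17820 from 2.05 and 2.63 to 0.927 and 0.909 (-1.14 ± 0.24, 0.00302). These 4 were already called at 1 day, where each was lost without WT -P1 replicate 1 and, for all but AT5G64100, without WT +P0 replicate 2 (for AT5G64100, WT +P0 replicate 1), with adjusted p of 0.0503 to 0.165. Without the libraries with genes seen nowhere else, AT2G38380, AT2G38390, AT5G64100 and AT5G17820 lost their 3-day calls (adjusted p = 0.102, 0.212, 0.0808 and 0.0969). AT4G37520 and AT4G37530 fell at 1 day, from 30.4 and 26.0 to 14.5 and 13.3 (-1.01 ± 0.28, 0.0214) and from 9.25 and 7.66 to 3.12 and 3.88 RPKM (-1.22 ± 0.23, 0.00242). At 3 days they had 18.8 and 23.9, and 6.48 and 5.55, and were not called. The 1-day call of AT4G37520 was lost without any 1 of its 4 libraries (largest adjusted p = 0.111, without WT +P0 replicate 1).

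PRXR1 was the exception among abundant members. It went from 728 and 631 RPKM to 959 and 861 after 1 day and 1214 and 1076 after 3 days, with no overlap between the groups (0.75 ± 0.10 at 3 days, adjusted p = 0.000152). The ratio of 1.69 lay under the 2-fold limit for shoots. In both lines PRXR1 stood lower than in WT when starved: at -P3 it had 727 and 675 in line 12 (-0.71 ± 0.10, 0.00018) and 796 and 798 in line 4 (-0.52 ± 0.10, 0.0013), again under 2-fold.

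**Figure D4:**
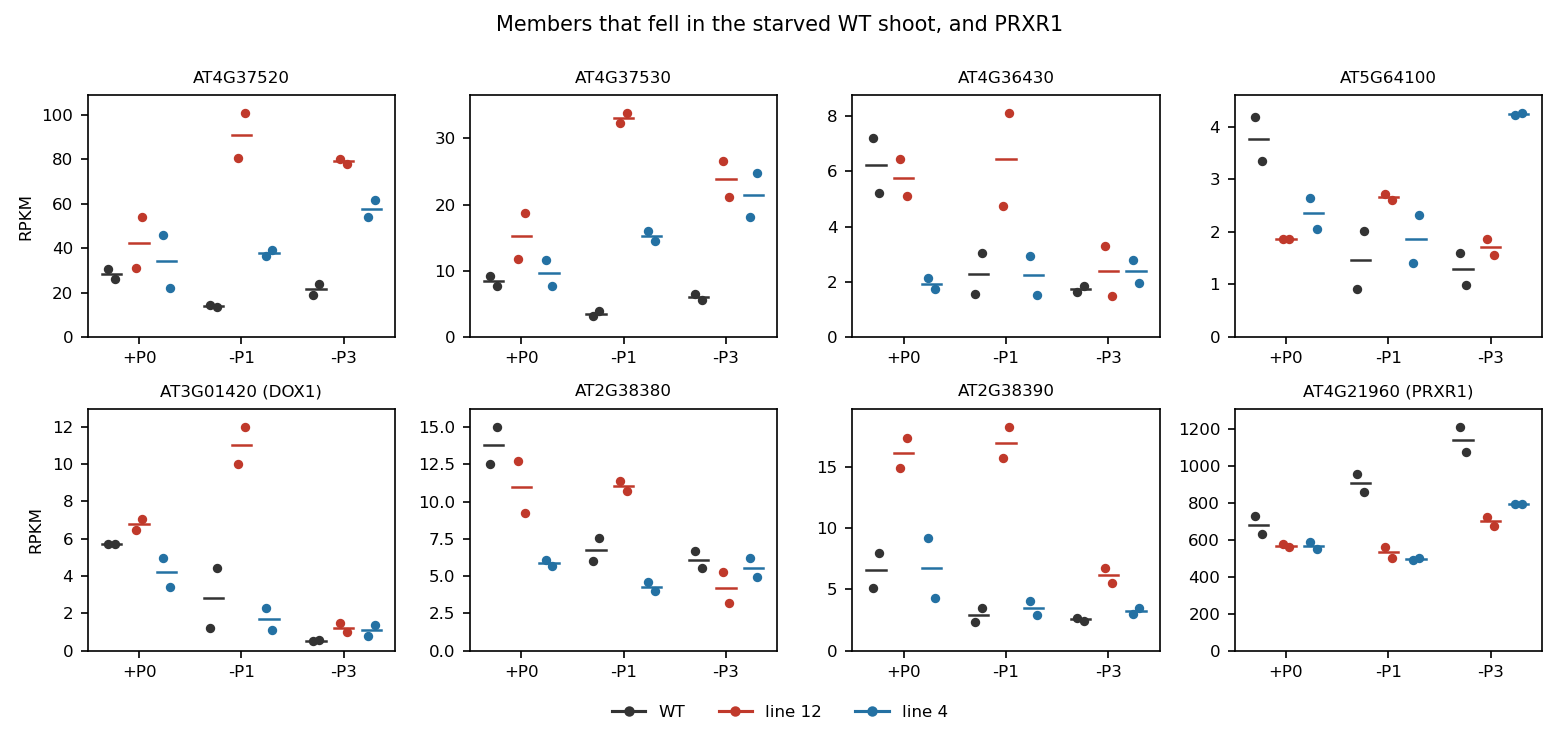
RPKM in shoot libraries (y axis, from 0) by Pi supply (x axis) for 7 members that fell in starved WT shoots and for PRXR1, with points for the 2 libraries of a group and a line at their mean, WT in grey, line 12 in red and line 4 in blue. DOX1 in WT drops from 5.69 and 5.70 to 0.514 and 0.548, and AT4G37520 and AT4G37530 stand far above WT in both lines at -P1 and -P3.

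In shoots at sufficient Pi, some defence and wounding peroxidases, other than the 3 that fell in roots, were higher in the lines. In line 12, 7 members rose, against 7.06% of all genes, and 1 fell, against 1.98%. In line 4, 4 rose, against 2.59%, and 4 fell, against 0.622%. Of 8 tested members on the defence and wounding list, 5 rose in line 12 (median log2 difference 2.30) and 4 in line 4 (1.78). In WT 1 of the 8 was called at -P3, Prx37, as lower. Without the libraries with genes seen nowhere else, which take away WT +P0 replicate 2 and line 12 +P0 replicate 2, the counts fell to 1 in line 12 and 0 in line 4, with 1 WT library left, taken to vary as other groups do.

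PRX52 had 5.77 and 12.6 RPKM in line 12 and 4.86 and 0.800 in line 4, against 0.376 and 0 in WT, or 240 and 372, 184 and 26, and 11 and 0 reads (4.47 ± 0.72, adjusted p = 0.000509, and 2.55 ± 0.72, 0.0442). AT5G19880 had 2.42 and 4.83 in line 12 and 2.89 and 0.964 in line 4, against 0.134 and 0.0600 in WT (3.42 ± 0.42, 7.59e-05, and 2.50 ± 0.42, 0.00337). Every library of the lines lay above both WT libraries for these genes, and within line 4 the first library was far above the second for both. The WT +P0 means of PRX52 and AT5G19880 (0.188 and 0.0970 RPKM) were under the limit for testing. Both were tested through means of 2.61 and 1.12 RPKM over all 18 shoot libraries, those of the lines included. The counts and medians given for the tested list members include both genes. Prx37 had 16.4 and 23.3 in line 12 and 25.2 and 7.0 in line 4 against 4.43 and 1.64 (2.73 ± 0.51, 0.00141, and 2.19 ± 0.51, 0.0172), and its neighbour AT4G08780 had 1.58 and 2.82 and 2.76 and 1.37 against 0.923 and 0.108 (1.87 ± 0.50, 0.0143, and 1.77 ± 0.50, 0.045). Their sum was 17.9 and 26.1 RPKM in line 12, 28.0 and 8.37 in line 4 and 5.36 and 1.74 in WT. AT5G06730 rose in line 12, with 2.95 and 5.31 against 0.480 and 0.269 (2.78 ± 0.60, 0.00386), and had 4.56 and 0.702 in line 4. The line 4 library with the higher values is also the line 4 library with more PHT5;1 (35.5 against 19.0 RPKM in the other), and the part of that was not tested.

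The line 4 calls rested on that library. Without line 4 +P0 replicate 1 the adjusted p was 0.412 for PRX52, 0.203 for Prx37, 0.337 for AT4G08780 and 0.0518 for AT5G19880, and without WT +P0 replicate 2 it was 0.317 for PRX52, 0.194 for Prx37 and 0.399 for AT4G08780. The count of members called in line 4 was 1 without either library. In line 12, AT4G08780 was lost without WT +P0 replicate 2 (0.180) or line 12 +P0 replicate 2 (0.118), and the count was 5 without the latter. Without the libraries with genes seen nowhere else, the line 12 differences were 3.26 for PRX52 (adjusted p = 0.0521), 1.83 for Prx37 (0.160), 2.13 for AT5G06730 (0.213) and 0.64 for AT4G08780 (0.506).

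Members off the defence list also differed at sufficient Pi. AT2G38390 rose in line 12 (14.9 and 17.4 RPKM against 5.13 and 7.96, 1.299 ± 0.30, adjusted p = 0.00592, lost without WT +P0 replicate 1, 0.0649). AT5G64110 rose in line 12 (12.9 and 19.2 against 7.15 and 8.12, 1.02 ± 0.20, 0.00179), under 2-fold without WT +P0 replicate 1 or line 12 +P0 replicate 2. AT5G64100 fell in line 12 (1.87 and 1.87 against 4.18 and 3.35, -0.91 ± 0.30, 0.0363), lost without any 1 of its 4 libraries (largest adjusted p = 0.175, without WT +P0 replicate 1). In line 4, AT2G38380 (6.06 and 5.67 against 12.6 and 15.02, -1.19 ± 0.22, 0.00501, lost without WT +P0 replicate 2, 0.0649), AT4G36430 (2.12 and 1.73 against 7.22 and 5.21), AT2G18150 (1.96 and 2.29 against 4.75 and 5.22) and AT1G68850 (0.355 and 0.237 against 1.28 and 1.41) fell. The last 3 were lost without any 1 of their 4 libraries, with largest adjusted p of 0.133, 0.198 and 0.193.

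After 1 day of starvation the shoot of line 12 stood further from WT. In line 12, 11 members rose, against 7.37% of all genes, and 2 fell, against 3.98%, with a median log2 difference of 0.55 against 0.19 over all genes. In line 4, 4 rose, against 3.08%, and 1 fell, against 2.76%. Without the libraries with genes seen nowhere else the counts were 10 and 3. PRX52 had 8.18 and 8.79 RPKM in line 12 against 0 and 0.198 in WT (4.71 ± 0.72, adjusted p = 0.000227), and Prx37 26.6 and 32.7 against 0.646 and 1.47 (4.58 ± 0.51, 2.34e-05). AT5G06730 (5.33 and 7.30 against 0.0782 and 0.551, 3.66 ± 0.60, 0.000356), AT4G08780 (2.61 and 3.21 against 0.139 and 0, 3.33 ± 0.50, 0.000202) and AT5G19880 (2.43 and 3.66 against 0.116 and 0.129, 3.12 ± 0.42, 9.65e-05) completed the defence members called. None of these line 12 calls was lost by leaving out 1 library. PRX52, AT4G08780 and AT5G19880 were under 0.25 RPKM in both WT libraries and passed the filter through other groups.

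In line 4 at -P1, Prx37 had 7.40 and 8.12 RPKM (2.69 ± 0.51, adjusted p = 0.00193), above WT and below line 12. AT5G19880 had 0.869 and 0.657 in line 4 (1.43 ± 0.42, 0.024), lost without any 1 of its 4 libraries (largest adjusted p = 0.120, without line 4 -P1 replicate 1). The neighbours AT4G37520 and AT4G37530, which had fallen in WT at this time, rose in both lines. AT4G37520 had 80.7 and 101 in line 12 and 36.6 and 39.0 in line 4 against 14.5 and 13.3 in WT (2.68 ± 0.28, 1.75e-05, and 1.43 ± 0.28, 0.0027). AT4G37530 had 32.3 and 33.8 in line 12 and 15.9 and 14.4 in line 4 against 3.12 and 3.88 (3.16 ± 0.23, 1.54e-06, and 2.05 ± 0.23, 5.35e-05). AT2G38390 (15.7 and 18.3 against 2.34 and 3.5, 2.46 ± 0.30, 4.52e-05) also rose in line 12, while DOX1 (10.0 and 12.0 against 1.21 and 4.44) was 3.89-fold higher there. The members that fell were AT5G40150 in line 12 (2.29 and 2.57 against 5.79 and 6.31) and AT2G34060 in both (3.16 and 1.99 in line 12, 2.84 and 2.21 in line 4, 6.48 and 4.15 in WT). The line 4 call of AT2G34060 was lost without WT -P1 replicate 1 (0.122) or line 4 -P1 replicate 2 (0.0885), and without the latter the line 4 count was 3.

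**Figure D5:**
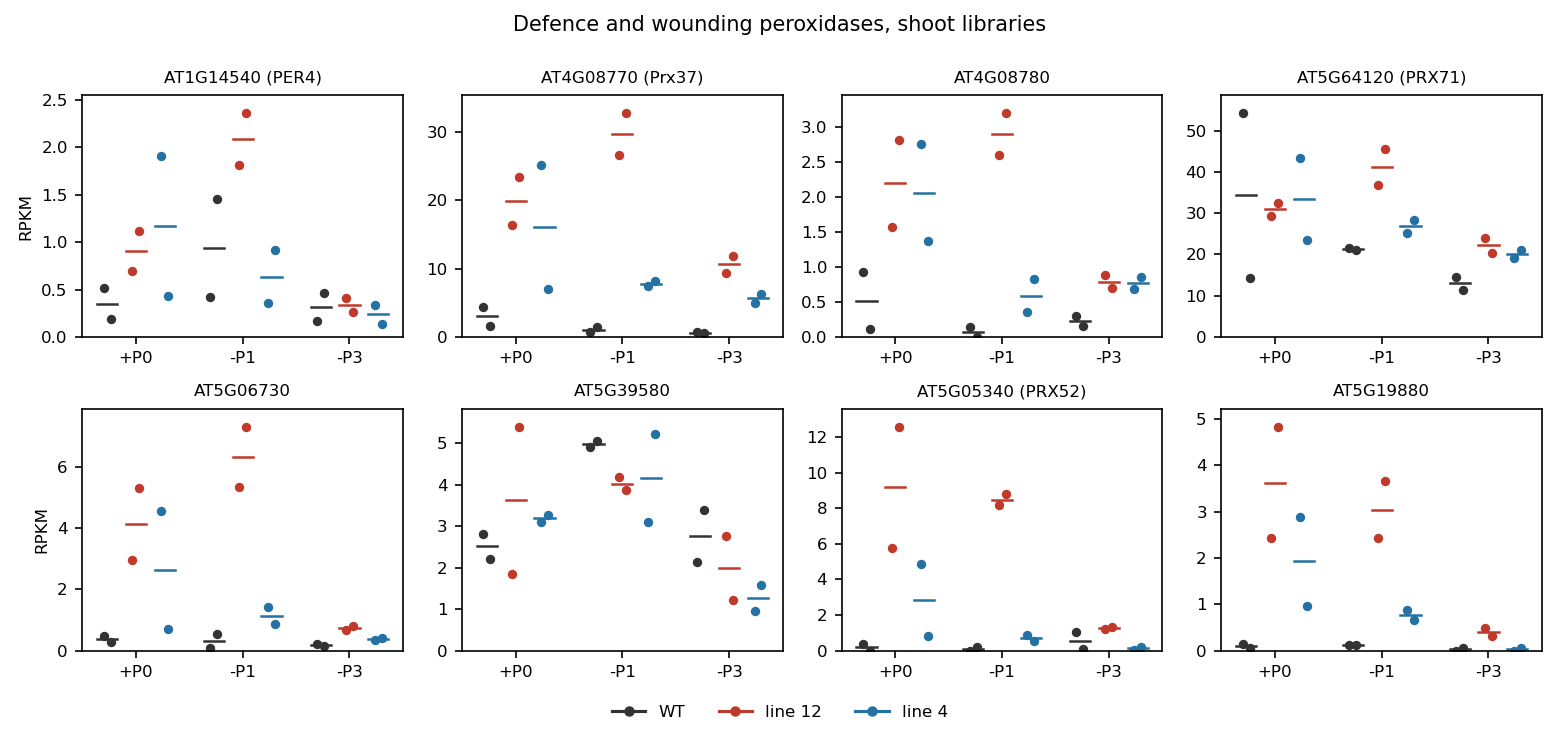
RPKM in shoot libraries (y axis, from 0) by Pi supply (x axis) for the 8 tested members of the defence and wounding list, with points for the 2 libraries of a group and a line at their mean, WT in grey, line 12 in red and line 4 in blue. Prx37 lies above WT in every library of both lines, and PRX52 in line 12 falls from 8.18 and 8.79 at -P1 to 1.24 and 1.32 at -P3.

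After 3 days fewer members differed in line 12 than after 1 day, but not in line 4. In line 12, 4 rose, against 3.62% of all genes, and 1 fell, against 4.07%, and in line 4, 6 rose, against 3.81%, and 0 fell, against 4.4% (limma, with 5 lower at an unadjusted p under 0.05). Without the libraries with genes seen nowhere else the counts stayed at 5 and 6. Prx37 had 9.40 and 11.8 RPKM in line 12 and 5.01 and 6.25 in line 4 against 0.745 and 0.512 in WT (3.63 ± 0.51, adjusted p = 0.000172, and 2.75 ± 0.51, 0.00106), and it was called higher in each of the 6 comparisons of a line with WT in the shoot. In roots, where it stood at 48.6 to 61.7 RPKM, it was called in none. AT4G37520 had 80.3 and 78.0 in line 12 and 54.0 and 61.6 in line 4 against 18.8 and 23.9 (1.89 ± 0.28, 0.000292, and 1.43 ± 0.28, 0.00171), and AT4G37530 26.6 and 21.1 and 18.1 and 24.8 against 6.48 and 5.55 (1.94 ± 0.23, 6.24e-05, and 1.78 ± 0.23, 9.19e-05). PRX52, at 1.24 and 1.32 in line 12 and 0.0559 and 0.209 in line 4 against 1.03 and 0.104 in WT, was no longer called. AT2G38390 rose in line 12 (6.77 and 5.50 against 2.65 and 2.46, 1.18 ± 0.30, 0.00756, lost without line 12 -P3 replicate 1, 0.0558), and RCI3 fell there (1.15 and 0.667 against 2.03 and 2.49, -1.14 ± 0.27, 0.00546, lost without line 12 -P3 replicate 2, 0.0717).

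The other members that rose in line 4 shoots at -P3 were genes of the root hair list. AT5G64100 had 4.22 and 4.26 RPKM against 1.59 and 0.995 in WT (1.57 ± 0.30, adjusted p = 0.00124), AT5G17820 2.07 and 2.48 against 0.927 and 0.909 (1.11 ± 0.24, 0.00273), and AT3G01190 1.14 and 2.48 against 0.397 and 0.631 (1.37 ± 0.49, 0.0428). The call of AT3G01190 was lost without line 4 -P3 replicate 2 (0.313), WT -P3 replicate 1 (0.196) or WT -P3 replicate 2 (0.0705). The same 2 libraries held the highest shoot sums of AT1G05240 and AT1G05250 (1.02 and 2.41 RPKM, against 0 to 0.448 in the other shoot libraries). They also held the highest shoot sums of the 5 trichoblast markers, 1.076 and 3.18 RPKM against 0.0795 to 0.6996 in the others. All 5 markers were above 0 in at least 1 of these 2 libraries, as they also were in WT and line 12 shoots at -P3. Endodermis markers were highest there too, at 2.85 and 2.41 RPKM with 4 of 5 above 0 in at least 1 library, against 0.362 to 1.82 in the others. The list with PYK10 summed to 130 and 119 RPKM in them, within or under the other shoot libraries. The part of root material in these 3 calls was not tested.

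The shoot's 3-day response differed from that of WT for 10 members in line 12, 5 larger against 19.9% of all genes and 5 smaller against 13.3%, and for 11 in line 4, 7 larger against 18.3% and 4 smaller against 11.5%. These shares lay near or under the background. Among them PRX52 (-3.29 ± 1.02, adjusted p = 0.0236, in line 12 and -3.39 ± 1.02, 0.0229, in line 4) and AT5G19880 (-2.17 ± 0.60, 0.0132, and -2.46 ± 0.60, 0.00762) had the most negative differences in both lines, from the high levels at +P0 given above. AT4G37520 and AT4G37530 responded by 1.35 ± 0.40 (0.0194) and 1.13 ± 0.33 (0.018) more in line 12 and 1.25 ± 0.40 (0.0318) and 1.62 ± 0.33 (0.0027) more in line 4. In line 12 the count was 4 without line 12 +P0 replicate 1 or WT -P3 replicate 1, 5 without WT +P0 replicate 1, line 12 -P3 replicate 1 or line 12 -P3 replicate 2, and 6 without line 12 +P0 replicate 2. In line 4 it was 6 without WT -P3 replicate 1 and 7 without line 4 -P3 replicate 1, WT +P0 replicate 2 or line 4 +P0 replicate 2. Without the libraries with genes seen nowhere else the counts were 5 and 6.

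Relatives under other descriptions were measured alongside. AT5G67400 and AT5G22410, which RefSeq names root hair specific 19 and 18, had 48.0 and 46.2 and 13.2 and 9.69 RPKM in WT +P0 roots. They rose in WT after 3 days to 151 and 128 (1.56 ± 0.23, adjusted p = 0.000146) and 22.7 and 21.3 (0.94 ± 0.26, 0.0144). At sufficient Pi AT5G67400 stood at 19.5 and 18.9 in line 12 and 19.7 and 8.24 in line 4 (-1.28 ± 0.23, 0.00202, and -1.86 ± 0.23, 0.000103), in the same directions as the root hair members. AT3G49120, a defence peroxidase, had 245 and 377 RPKM in line 12 shoots at +P0 and 298 and 424 at -P1 against 126 and 62.04 and 78.4 and 85.2 in WT (1.78 ± 0.34, 0.00163, and 2.12 ± 0.34, 0.0003). AT3G49120 was 90.4% identical to AT3G49110 over the coding sequence.

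The enzymes that supply or use the same substrates were read from lists. RBOHD (AT5G47910), an NADPH oxidase that makes the superoxide from which hydrogen peroxide forms, rose in WT shoots from 13.0 and 10.2 RPKM to 57.4 and 82.5 after 3 days (2.56 ± 0.28, adjusted p = 5.45e-05). It stood at 53.5 and 81.9 in line 12 and 47.4 and 38.2 in line 4 at +P0, and at 24.8 and 23.4 and 21.0 and 24.1 at -P3. RBOHC (AT5G51060), the NADPH oxidase of root hairs, had 21.4 and 19.9 RPKM in WT +P0 roots and 29.997 and 30.4 at -P3, and was not called in any root comparison. The catalase CAT2 (AT4G35090) was lower in starved shoots of both lines, with 37.7 and 37.3 in line 12 and 50.9 and 50.3 in line 4 against 105 and 101 in WT at -P1. Of 17 genes of lignin monomer synthesis and laccases, 4 rose in line 12 shoots at +P0, against 7.06% of all genes, and the 3-day response was smaller than in WT for 11 in line 12, against 13.3%, and 10 in line 4, against 11.5%.

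Of 8 regulators listed, all tested in the root, 1 was called higher and 2 lower in each line at +P0. Over all genes 2.41% were called higher and 2.69% lower in line 12, and 0.701% and 3.74% in line 4. The regulators called lower were RSL2 (AT4G33880) and RSL4 (AT1G27740), transcription factors of root hair growth. RSL2 had 5.63 and 5.40 RPKM in line 12 and 5.64 and 4.61 in line 4 roots against 13.0 and 10.7 in WT (-1.06 ± 0.14, adjusted p = 0.000134, and -1.17 ± 0.14, 6.72e-05). Like AT1G34510, it fell in WT roots after 1 day (7.04 and 6.76) and rose after 3 days (29.0 and 27.1). RSL4 had 4.10 and 3.66 and 3.92 and 4.81 against 8.61 and 7.64 at +P0 (-1.02 ± 0.15, 0.000277, and -0.86 ± 0.15, 0.00135). RSL4 was called lower at -P3 as well, with 6.77 and 6.46 in line 12 and 6.98 and 5.52 in line 4 against 10.8 and 9.86 in WT (-0.62 ± 0.15, 0.0111, and -0.71 ± 0.15, 0.00744), where no root hair member was called lower. LPR1 (AT1G23010), a multicopper oxidase of the root's growth response to low Pi, was the regulator higher at +P0, with 9.27 and 9.62 in line 12 and 7.83 and 6.08 in line 4 against 4.93 and 4.03 in WT (1.04 ± 0.16, 0.000401, and 0.60 ± 0.16, 0.0238). In starved roots it was called lower in both lines at both times.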

How the data were processed

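RNA of 18 shoot and 18 root libraries was sequenced by the authors as paired reads, trimmed and mapped to TAIR10 in the CLC Genomics Workbench (version not given in the sources used here), and RPKM per gene and library was deposited. Reads behind the deposited RPKM were recovered from the value of 1 read (99.1 to 100% of values up to 20 reads were whole within 0.01), and totals from 2299 single-exon genes. Means, log2 ratios, gene lists and ontology results of the authors' own comparisons were also deposited and were not used. The 146 rows with no gene identifier, at most 0.109% of the RPKM, were left out.

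Log2(RPKM + 0.25) was fitted with limma 3.58.1 (R 4.3.3, trended variance), 9 groups in 1 model per tissue with 9 residual degrees of freedom, for genes averaging 0.25 RPKM or more across a tissue. Root and shoot were compared in a model over all 36 libraries. P-values were adjusted by the Benjamini-Hochberg method over all genes tested. Calls needed an adjusted p under 0.05 together with a fold between mean RPKM (means under 0.25 raised to 0.25) of 2 in the shoot and between tissues, or 1.5 in the root. Interactions were called by adjusted p alone. Every p-value rests on 2 libraries per group. The code was tested on simulated data.

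The family and the lists were chosen with earlier results of these data known, while membership followed the description alone. Named were the 10 members of highest mean RPKM in each tissue, all called members of a comparison (of more than 10, the 8 with the largest log2 change) and the members of the lists; other members and libraries named beyond this were chosen after their values were seen. Alternatives were another scaling of the libraries, a pseudocount of 1, no filter, a replicate block, adjusted p alone and leaving out libraries. Replicate numbers were not taken to pair the samples. Sequences and gene positions came from RefSeq's annotation of TAIR10.1, and exon lengths were found for 64 members.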

Additional observations from a re-analysis of the deposited data

Results flagged for a closer look

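The 3-day starvation response of a line minus that of WT passed the test for the members below, whose response therefore differed between genotypes. Values are log2 differences ± SE with the adjusted p of limma, on 2 libraries per group.

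In line 12 roots the response was larger for AT5G39580 (2.02 ± 0.28, 0.000133), PER4 (AT1G14540, 1.40 ± 0.33, 0.0101), AT3G03670 (1.35 ± 0.35, 0.0199), AT2G22420 (1.10 ± 0.17, 0.000304) and AT4G08780 (0.89 ± 0.22, 0.0139). It was smaller for AT1G49570 (-1.23 ± 0.34, 0.0254), AT4G11290 (-0.90 ± 0.15, 0.000671) and AT5G19890 (-0.87 ± 0.22, 0.0137). The call of AT1G49570 was lost without 7 of the 8 libraries in turn, that of AT3G03670 without 6, that of AT4G08780 without 4 and that of AT5G19890 without 3 (largest adjusted p = 0.118, 0.0743, 0.0736 and 0.0691), and the other 4 held.

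In line 4 roots the response was larger for AT1G05250 (1.91 ± 0.46, 0.0184), AT3G49960 (1.52 ± 0.23, 0.000548), PRX71 (AT5G64120, 1.35 ± 0.28, 0.0073), PER4 (1.302 ± 0.33, 0.0253), AT1G34510 (1.27 ± 0.20, 0.000969), AT5G39580 (1.27 ± 0.28, 0.0109) and AT4G26010 (1.11 ± 0.25, 0.012). It was smaller for AT1G49570 (-1.18 ± 0.34, 0.0462). The value of AT1G05250 is uncertain on its own, since its coding sequence is identical to that of AT1G05240. The call of AT1G49570 was lost without 7 of the 8 libraries, that of PER4 without 6, that of AT1G05250 without 5 and those of AT4G26010 and AT5G39580 without 2 each (largest adjusted p = 0.143, 0.104, 0.0832, 0.0596 and 0.069), and the other 3 held.

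In line 12 shoots the response was larger for AT4G33420 (1.64 ± 0.45, 0.0131), AT4G37520 (1.35 ± 0.40, 0.0194), AT5G64100 (1.28 ± 0.42, 0.0305), AT4G37530 (1.13 ± 0.33, 0.018) and AT3G28200 (0.75 ± 0.24, 0.0283). It was smaller for PRX52 (AT5G05340, -3.29 ± 1.02, 0.0236), AT5G19880 (-2.17 ± 0.60, 0.0132), RCI3 (AT1G05260, -1.12 ± 0.38, 0.0389), AT5G58390 (-0.60 ± 0.17, 0.0161) and PRXR1 (AT4G21960, -0.46 ± 0.14, 0.0225). Each of these 10 calls was lost without at least 2 of the 8 libraries, with a largest adjusted p of 0.0568 to 0.162. Without the 5 shoot libraries with genes seen nowhere else, 6 of the 10 were lost: AT3G28200 (0.0868), PRXR1 (0.126), PRX52 (0.0986), AT5G19880 (0.248), AT5G58390 (0.0684) and AT5G64100 (0.170).

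In line 4 shoots the response was larger for AT5G64100 (2.19 ± 0.42, 0.00169), AT3G01190 (2.15 ± 0.70, 0.0328), AT4G36430 (1.94 ± 0.55, 0.0166), AT4G37530 (1.62 ± 0.33, 0.0027), AT5G17820 (1.31 ± 0.33, 0.0101) and AT4G37520 (1.25 ± 0.40, 0.0318). It was smaller for PRX52 (-3.39 ± 1.02, 0.0229) and AT5G19880 (-2.46 ± 0.60, 0.00762). The calls of AT4G37520, AT3G01190, AT4G36430 and PRX52 were lost without 6, 5, 4 and 4 of the 8 libraries (largest adjusted p = 0.129, 0.142, 0.0617 and 0.104), and the other 4 held without any single library. Without the 5 shoot libraries with genes seen nowhere else, AT3G01190 (0.158), AT5G17820 (0.0908) and AT5G19880 (0.0772) were lost.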

How the results depend on the processing

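No call among the named values changed direction under any alternative tried. With adjusted p alone the counts of members called became 14, 21 and 9 for line 12 against WT in the shoot at +P0, -P1 and -P3, and 8 for line 4 at -P1. In the root they became 23 for starved WT at -P3, 15 and 13 for line 12 at -P1 and -P3, and 8 and 4 for line 4 at -P1 and -P3. Median-ratio scaling gave 4 for WT shoots at -P1 and 30 for the response of line 12 minus that of WT in the root. No filter gave 5 for line 4 shoots at +P0. The replicate block gave 28 for the response of line 12 minus that of WT in the root and kept every call among the named values. Residuals of same-numbered libraries correlated with a median r of 0.0245 (shoot) and 0.0725 (root) over 36 pairs each, with a range of -0.178 to 0.699 and -0.0688 to 0.238 and with 11 and 10 pairs above 0.1. Since not every pair was above 0.1, the numbers were not taken to pair the samples, and this rule is not a test of pairing. The 5 shoot libraries that stood apart were all second replicates, and their part in the shoot correlations was not tested. Without the 5 shoot libraries with genes seen nowhere else (chosen after seeing the data) the shoot counts were 4 for WT at -P3, 1 for line 12 at +P0, 0 and 3 for line 4 at +P0 and -P1, and 5 and 6 for the responses of lines 12 and 4.

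Leaving out 1 library at a time, shoot counts ranged from 1 to 11 for WT at -P1, 7 to 8 at -P3, 5 to 9, 10 to 17 and 4 to 7 for line 12 at +P0, -P1 and -P3, 1 to 6, 3 to 6 and 5 to 6 for line 4, and 4 to 8 and 6 to 9 for the responses of lines 12 and 4. Root counts ranged from 4 to 7 and 12 to 14 for WT, 10 to 13, 4 to 10 and 3 to 6 for line 12, 11 to 17, 3 to 4 and 1 to 2 for line 4, and 8 to 14 and 8 to 25 for the responses. Root against shoot gave 47 to 50.

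Of the named values, calls kept were 144 of 149 under median-ratio scaling, 146 with a pseudocount of 1, 136 with no filter, 149 with the block, 525 of 732 without 1 library and 36 of 73 without the 5 shoot libraries. A group left with 1 library was assumed to vary like the others. With 2 libraries per group and 7.13 to 15.3 reads at 0.25 RPKM, small changes and members under that level could not be detected.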
